A study of Homo sapiens with 8 samples.

Results

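The genes described here are 29 genes of cholesterol and fatty acid synthesis, with the regulators that control both pathways. They were measured in co-culture and in separate culture of H9, a long-established line of human embryonic stem cells. The 29 were taken from a list of gene symbols, each matched in the deposited expression table to a row whose name fitted its gene number. All 29 symbols were found, out of 45961 gene numbers in the table, and 29 of 29 were among the 12449 genes tested, which had a mean of at least 1 FPKM. FPKM is a fragment count scaled by transcript length and by the mapped fragments of the library. The 8 polyA RNA libraries form 4 groups of 2. D1_Co, D2_Co and D3_Co are days 1, 2 and 3 under the title word Co, read here as co-culture, and D3_Control is day 3 under the title word Control, read as separate culture. The series compares the same human cells in both kinds of culture, and its title places it in work on cell competition between species. All 4 groups are the same unmodified line as far as the labels go, with no allele or drug named. The partner cells, and how H9 cells were parted from them before RNA extraction, are not given in the sources used here. Per the labels' protocols, human cells were kept either on Matrigel in mTeSR1 or on feeders of mouse fibroblasts, where the medium held FGF2, the WNT inhibitor IWR1 and serum albumin low in fatty acids. The labels do not tie either medium to a library. Nothing in the labels ties the libraries of a group to separate cultures, and the spread behind each p-value is that between these libraries only, which may be technical.

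Animal cells build cholesterol from acetyl-CoA through mevalonate, isoprenoid diphosphates, squalene and lanosterol, and they build fatty acids from the same acetyl-CoA through malonyl-CoA. Both chains are switched on by the SREBP transcription factors, which are encoded by SREBF1 and SREBF2. When sterols are plentiful, INSIG proteins hold the SREBP precursors in the endoplasmic reticulum, and when sterols run short the precursors move to the Golgi apparatus, are cut and enter the nucleus. The SREBF2 product acts mainly on sterol genes and the SREBF1 product mainly on fatty acid genes, and proliferating stem cells need both products for new membrane.

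The promoters of 6 members are shown, because these carry some of the day 3 differences or encode the SREBP regulators: MSMO1, INSIG1 and STARD4 were higher in D3_Co than in D3_Control, LSS and SREBF1 were lower, and SREBF2 held the sterol motif searched for. Each run is upstream sequence from RefSeq, build GRCh38.p14, read 5′ to 3′ on the gene's own strand, and begins 250 bases before the annotated start. Capitals mark CCAAT, the core bound by NF-Y, GGGCGG, the core bound by Sp1, and TCACNCCAC, a core of the sterol regulatory element bound by SREBP. Matches on the opposite strand are in capitals as their reverse complement, and neighbouring GGGCGG matches can share bases. The run of MSMO1 is chr4:165327419-165327622 on the plus strand, that of INSIG1 chr7:155297628-155297775 on the plus strand, that of STARD4 chr5:111512591-111512785 on the minus strand, that of SREBF2 chr22:41832855-41833078 on the plus strand, that of LSS chr21:46228825-46229024 on the minus strand and that of SREBF1 chr17:17837003-17837236 on the minus strand. Each lies upstream of the gene's annotated first exon. The runs stop where an exon of a protein-coding gene begins, so matches nearer the start are not shown. In windows that reach 50 bases past the start, GGGCGG had 3 matches for SREBF2, 1 for STARD4, 6 for INSIG1 and 7 for LSS. The runs shown hold 0, 0, 3 and 4 of these. CCAAT had 4 matches in the window of MSMO1 and 3 in its run.
MSMO1: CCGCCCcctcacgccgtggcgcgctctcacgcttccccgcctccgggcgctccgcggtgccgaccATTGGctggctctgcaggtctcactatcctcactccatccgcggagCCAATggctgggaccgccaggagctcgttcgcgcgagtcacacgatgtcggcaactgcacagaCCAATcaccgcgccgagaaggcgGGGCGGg
INSIG1: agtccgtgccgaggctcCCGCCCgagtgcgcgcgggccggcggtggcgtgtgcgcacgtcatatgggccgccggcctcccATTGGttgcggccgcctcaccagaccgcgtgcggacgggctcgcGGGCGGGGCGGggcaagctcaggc
STARD4: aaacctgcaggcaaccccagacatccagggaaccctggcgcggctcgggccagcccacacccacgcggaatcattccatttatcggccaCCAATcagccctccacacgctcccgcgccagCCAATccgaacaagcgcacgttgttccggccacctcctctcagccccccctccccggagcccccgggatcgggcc
SREBF2: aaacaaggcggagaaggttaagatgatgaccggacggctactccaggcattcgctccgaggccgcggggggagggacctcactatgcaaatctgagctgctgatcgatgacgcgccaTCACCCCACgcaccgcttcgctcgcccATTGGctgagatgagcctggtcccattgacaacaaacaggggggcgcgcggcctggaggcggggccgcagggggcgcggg
LSS: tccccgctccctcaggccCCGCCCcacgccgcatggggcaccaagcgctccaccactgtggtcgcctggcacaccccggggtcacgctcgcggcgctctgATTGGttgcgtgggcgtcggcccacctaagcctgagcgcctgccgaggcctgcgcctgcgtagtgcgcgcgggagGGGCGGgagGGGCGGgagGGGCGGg
SREBF1: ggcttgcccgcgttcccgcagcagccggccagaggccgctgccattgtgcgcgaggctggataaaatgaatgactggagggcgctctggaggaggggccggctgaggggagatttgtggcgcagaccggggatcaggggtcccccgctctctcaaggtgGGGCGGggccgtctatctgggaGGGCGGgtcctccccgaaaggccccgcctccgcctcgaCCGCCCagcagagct
RefSeq windows of 250 bases before to 50 bases after the start were matched for 25 of 29 members, those other than ACAT2, FDFT1, SQLE and FASN. On either strand CCAAT was found in 17 of 25 windows, and in 35.7% of 27305 windows of all genes. GGGCGG was found in 23 of 25, and in 44.6% of all windows. TCACNCCAC was found in 1 of 25, that of SREBF2 with its first base 133 bases before the start (position -133), and in 1.15% of all windows. These are letter matches, and no binding was measured.

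The libraries were alike in scale, with FPKM sums of 421825 to 440675, and their read depth is unknown. In the table as deposited, many values stood on the wrong row, and they were first returned to their rows. Of the 29 members, 20 had stood in place in all 8 libraries and 9 had at least 1 value moved, namely ACAT2, IDI1, FDFT1, LSS, HSD17B7, ACLY, ACACA, FASN and FADS1. 51 member values were moved, and for 41 of them the row order allowed no other value. Where it did allow others, the order chosen was the one closest to D1_Co replicate 2 over all rows, so differences can be understated in the 4 genes concerned, ACAT2, LSS, ACLY and ACACA. After this step libraries correlated at 0.992 to 0.994 within groups and at 0.974 to 0.988 between groups, over log2 values of the genes tested. In every library 10 of 10 pluripotency markers were expressed, with POU5F1 at 722 to 811 FPKM. ZFP42 varied most by group, at 6.01 and 5.83 FPKM in D2_Co and 36.5 and 36.8 FPKM in D3_Control. Of 10 fibroblast markers, DCN, LUM and FAP were listed at 0 in all 8 libraries, and of 10 endoderm markers TTR was. In each library 6 or 7 of 10 fibroblast markers and 6 to 9 of 10 endoderm markers were under 1 FPKM. A few on these 2 lists were not low, with COL1A1 at 23.1 to 42.5 FPKM and CER1 at 41.2 to 366.5 FPKM.

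On day 3, 9 of 29 members rose in D3_Co against D3_Control, all of them genes of sterol synthesis, its control or sterol transport, led by STARD4, MSMO1 and INSIG1 at 1.52, 1.39 and 1.33 times the D3_Control mean. 3 of 29 fell, which were LSS, TM7SF2 and SREBF1, and none of the 7 fatty acid genes passed the test. The members that rose are 31% of the list, against 13.5% of all genes tested that rose, and those that fell are 10.3%, against 10.8% of all genes that fell, a share close to that of all genes. The median log2 difference was 0.10 over the 29 and 0.00 over all 12449 genes. Calls are adjusted p-values under 0.05 from limma on log2(FPKM + 1), with Benjamini-Hochberg adjustment over all genes tested. The counts by role below stand beside the same 13.5% and 10.8% of all genes. Called genes were chosen on these same libraries, so their lack of overlap, given below, adds no evidence. MVK, MVD, NSDHL, ACLY, SCD and FADS2 did not overlap between the 2 groups either and were not called. The share of all genes tested that did not overlap is not given here, so nothing is drawn from this. In bulk libraries, fewer cells of a type and less RNA per cell cannot be told apart.

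In the steps from acetyl-CoA to squalene, 4 of 8 genes rose and none fell, with a median log2 difference of 0.21. At an unadjusted p under 0.05, 5 were higher and 0 lower by limma, the only tool run. Over all 12449 genes, 2563 were higher and 2216 lower at that level. ACAT2, which joins acetyl-CoA units at the head of the chain, stood at 127 and 128 FPKM in D3_Co, against 112 and 104 FPKM in D3_Control. FDPS, the farnesyl diphosphate synthase, stood at 177 and 169.5 FPKM in D3_Co, against 138 and 137 FPKM in D3_Control. For both genes the D3_Co libraries lay above both D3_Control libraries without overlap, and the log2 differences were 0.24 (SE 0.06, limma adjusted p = 0.02) for ACAT2 and 0.33 (SE 0.06, limma adjusted p = 0.01) for FDPS. IDI1, which interconverts the isoprenoid building blocks, stood at 47.1 and 51.1 FPKM in D3_Co, against 43.7 and 41.1 FPKM in D3_Control. FDFT1, the squalene synthase, stood at 344 and 360.2 FPKM in D3_Co, against 304 and 300.3 FPKM in D3_Control. These 2 also did not overlap, with log2 differences of 0.21 (SE 0.06, limma adjusted p = 0.0453) and 0.22 (SE 0.05, limma adjusted p = 0.02). HMGCS1, the cytosolic synthase of HMG-CoA, stood at 84.0 and 128 FPKM in D3_Co, against 108 and 102 FPKM in D3_Control. Its D3_Co libraries lay on either side of both D3_Control libraries, and it was not called (log2 difference -0.02, SE 0.17, limma adjusted p = 0.947). The kinases MVK and PMVK and the decarboxylase MVD were not called, at log2 differences of 0.19, -0.05 and 0.27.

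In the steps from squalene to cholesterol, 3 of 10 genes rose and 2 fell, with a median of 0.09. MSMO1, the oxidase that removes sterol methyl groups, stood at 89.4 and 85.9 FPKM in D3_Co, against 64.7 and 61.1 FPKM in D3_Control. HSD17B7, the ketoreductase that works beside it, stood at 23.4 and 26.1 FPKM in D3_Co, against 19.2 and 19.7 FPKM in D3_Control. SQLE, the squalene epoxidase, stood at 107 and 109 FPKM in D3_Co, against 99.3 and 93.1 FPKM in D3_Control. All 3 were higher in D3_Co without overlap, MSMO1 by 0.47 (SE 0.05, limma adjusted p = 0.00128), HSD17B7 by 0.33 (SE 0.07, adjusted p = 0.0151) and SQLE by 0.17 (SE 0.05, adjusted p = 0.0419) on the log2 scale. LSS, which closes the rings to form lanosterol, stood at 60.3 and 52.4 FPKM in D3_Co, against 86.4 and 88.3 FPKM in D3_Control. TM7SF2, a sterol reductase later in the chain, stood at 31.9 and 31.6 FPKM in D3_Co, against 40.1 and 40.1 FPKM in D3_Control. Both were lower in D3_Co without overlap, with log2 differences of -0.63 (SE 0.11, limma adjusted p = 0.00891) for LSS and -0.33 (SE 0.07, limma adjusted p = 0.0185) for TM7SF2. The demethylase CYP51A1, the dehydrogenase NSDHL, the isomerase EBP, the desaturase SC5D and the final reductase DHCR7 were not called, with log2 differences between -0.10 for DHCR7 and 0.17 for NSDHL.

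Among the regulators and the carrier, 2 of 4 rose and 1 fell. INSIG1, which holds the SREBP precursors in the endoplasmic reticulum and is itself a well-known SREBP target, stood at 36.2 and 34.0 FPKM in D3_Co, against 26.3 and 26.7 FPKM in D3_Control. STARD4, a soluble protein that carries cholesterol between membranes, stood at 13.4 and 11.6 FPKM in D3_Co, against 7.88 and 8.61 FPKM in D3_Control. Both lay wholly above D3_Control, with log2 differences of 0.39 (SE 0.05, limma adjusted p = 0.00254) for INSIG1 and 0.54 (SE 0.10, limma adjusted p = 0.0085) for STARD4. SREBF1 stood at 26.3 and 25.9 FPKM in D3_Co, against 32.8 and 33.1 FPKM in D3_Control, and SREBF2 stood at 119.7 and 127 FPKM in D3_Co, against 121 and 116 FPKM in D3_Control. SREBF1 was lower in D3_Co without overlap, with a log2 difference of -0.32 (SE 0.05, limma adjusted p = 0.00627). SREBF2 was not called, with 1 D3_Co library above and 1 between the D3_Control libraries (log2 difference 0.06, SE 0.07, limma adjusted p = 0.566).

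Among the fatty acid genes, 0 of 7 were called by limma, and 0 of 7 had an unadjusted p under 0.05. FASN, the synthase that makes palmitate, stood at 301 and 278 FPKM in D3_Co, against 247 and 282 FPKM in D3_Control. ACACA, which makes malonyl-CoA, stood at 40.3 and 38.6 FPKM in D3_Co, against 39.0 and 40.3 FPKM in D3_Control. SCD, which puts the first double bond into saturated fatty acids, stood at 525 and 506 FPKM in D3_Co, against 484 and 496 FPKM in D3_Control. ACACA and FASN overlapped between the groups, and SCD did not, but its gap was small beside its level. Over the 7, with the citrate lyase ACLY, the elongase ELOVL6 and the desaturases FADS1 and FADS2, log2 differences lay between -0.07 for FADS2 and 0.14 for FASN, with limma adjusted p-values of 0.142 and above.

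**Figure D1:**
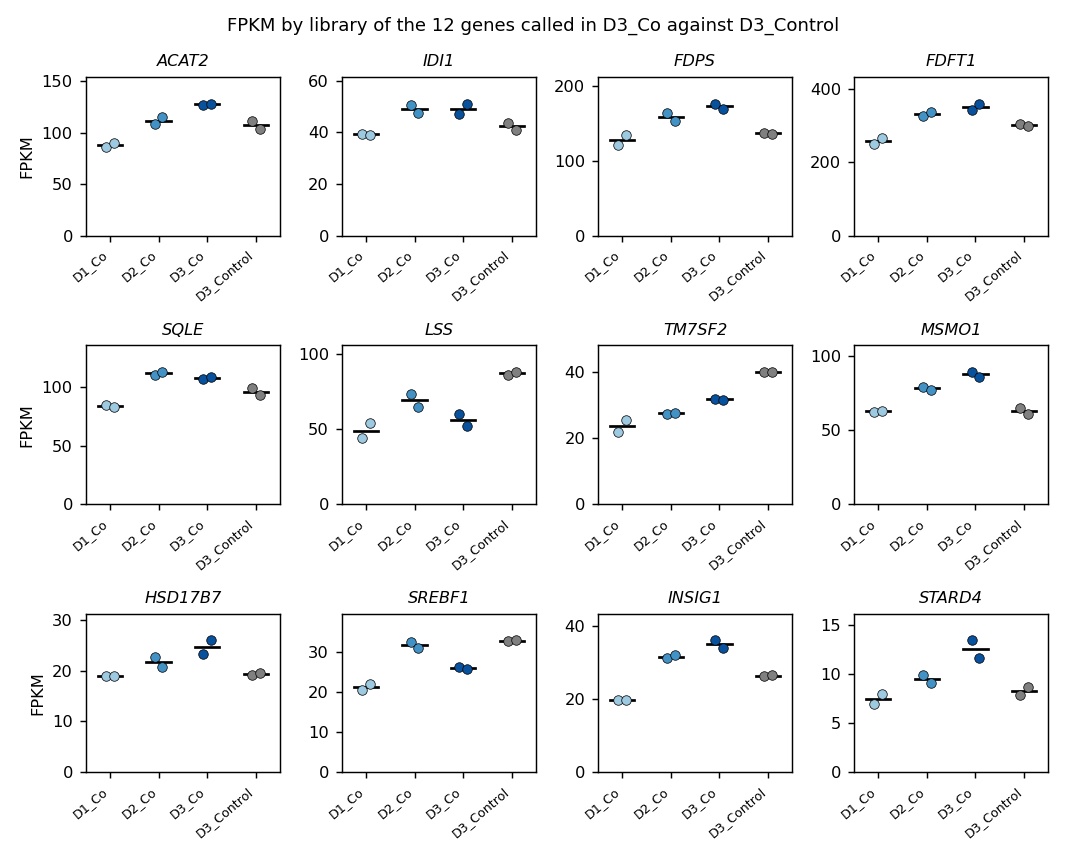
FPKM (vertical axes, each from 0) of the 12 members called in D3_Co against D3_Control, in D1_Co, D2_Co, D3_Co and D3_Control. Each point is 1 library and each bar the mean of 2 libraries. In the 9 panels of genes that rose, both D3_Co points lie above both D3_Control points, and in the panels of LSS, TM7SF2 and SREBF1 both lie below. The 12 were chosen on these same libraries, so this separation adds no evidence.

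The day 3 count rested on few libraries, and 3 of the 12 calls, those of MSMO1, SREBF1 and INSIG1, held in each of 8 fits that left out 1 library. 8 members were called without D3_Co replicate 1 (limma adjusted p of the lost calls 0.0508 to 0.102), 6 without D3_Co replicate 2 (0.0518 to 0.195), 6 without D3_Control replicate 2 (0.0531 to 0.0798) and 4 without D3_Control replicate 3 (0.0506 to 0.197). IDI1 and SQLE also lost their calls without any 1 library of D1_Co or D2_Co (0.057 to 0.0657). Of the 12 called members, exons of ACAT2, IDI1, FDPS, FDFT1, LSS, TM7SF2, SREBF1 and STARD4 overlap exons of other genes in the GENCODE 29 annotation of GRCh38, and FDPS and HSD17B7 have named pseudogenes, so these levels are uncertain where fragments could be shared. MSMO1, INSIG1 and SQLE have neither. Among the other members, exons of HMGCS1, MVK, CYP51A1, SREBF2, ACLY, FADS1 and FADS2 overlap other genes, and CYP51A1, SCD and FADS2 have named pseudogenes.

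Markers of other cell types moved over the same groups. Summed fibroblast markers were 42.05 and 38.62 FPKM in D1_Co, 51.59 and 56.09 in D2_Co, 73.68 and 69.77 in D3_Co, and 45.97 and 45.25 in D3_Control. Of the 10, 4 were tested and 2, COL1A1 and COL1A2, rose in D3_Co against D3_Control, while DCN, LUM and FAP were listed at 0 throughout. Summed endoderm markers were 373.3 and 325.4 FPKM in D1_Co, 250.5 and 274 in D2_Co, 101.8 and 104.6 in D3_Co, and 54.2 and 46.61 in D3_Control, most of it from CER1, a secreted NODAL antagonist. Of these 10, 3 were tested, of which CER1 rose and FOXA2 fell in D3_Co against D3_Control. Summed pluripotency markers were 1766 and 1758 FPKM in D1_Co, 1732 and 1670 in D2_Co, 1807 and 1757 in D3_Co, and 2037 and 1953 in D3_Control. In D3_Co against D3_Control 6 of 10 fell. Over all genes tested, 13.5% rose and 10.8% fell in that comparison. Whether these markers come from other cells in the libraries, and any part of such cells in the lipid gene differences, was not tested.

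Over the days of co-culture, D1_Co had the lowest mean of the 4 groups in 28 of 29 members, against 28.9% of all genes tested, and PMVK was the exception, lowest in D2_Co. The summed endoderm markers given above, most of it CER1, were highest in D1_Co, but AFP was lowest there and FOXA2 was highest in D3_Control. The summed fibroblast markers were lowest in D1_Co, as were COL1A1, COL1A2 and PDGFRB, while TWIST2 was lowest in D3_Control. Both D1_Co libraries lay below the other 6 in 22 of 29 members, against 12.8% of all genes tested. Between D3_Co and D1_Co, 22 of 29 members rose and none fell, and all 29 differences were positive, against 6853 of 12449 genes tested. The members that rose are 75.9% of the list, against 16.1% of all genes tested that rose, while 10.5% of all genes fell. At an unadjusted p under 0.05 by limma, 25 members were higher and 0 lower, against 2930 and 2090 of all 12449 genes. The median log2 difference was 0.37 over the members and 0.03 over all genes.

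Early in the sterol chain, HMGCS1 had the largest difference of the 29 between D3_Co and D1_Co. HMGCS1 stood at 48.4 and 50.5 FPKM in D1_Co, 81.5 and 79.4 in D2_Co, 84.0 and 128 in D3_Co and 108 and 102 in D3_Control. ACAT2 stood at 86.0 and 90.2 FPKM in D1_Co and 109 and 115 in D2_Co, and FDFT1 at 250.5 and 266 in D1_Co and 328 and 338 in D2_Co, beside the day 3 values above. In all 3 genes the D1_Co libraries were the lowest of the 8, and the HMGCS1 libraries of D3_Co lay far apart. The D3_Co against D1_Co differences were 1.05 (SE 0.17, limma adjusted p = 0.00565) for HMGCS1, 0.53 (SE 0.06, adjusted p = 0.00161) for ACAT2 and 0.45 (SE 0.05, adjusted p = 0.00192) for FDFT1. FDPS and IDI1 rose by 0.43 and 0.31, and MVD by 0.41. MVK and PMVK were not called, at 0.22 and 0.01.

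Later in the sterol chain, 7 of 10 genes rose between D3_Co and D1_Co. MSMO1 stood at 62.1 and 63.1 FPKM in D1_Co and 79.4 and 77.2 in D2_Co, SQLE at 84.5 and 83.4 in D1_Co and 111 and 113 in D2_Co, and HSD17B7 at 19.0 and 18.9 in D1_Co and 22.8 and 20.9 in D2_Co. MSMO1 in D1_Co lay within the range of its D3_Control libraries, while SQLE and HSD17B7 lay below theirs. TM7SF2 stood at 21.8 and 25.6 FPKM in D1_Co and 27.4 and 27.7 in D2_Co, and LSS at 43.8 and 54.3 in D1_Co and 73.5 and 64.9 in D2_Co. All 6 co-culture libraries of both genes lay below both D3_Control libraries. TM7SF2 was higher in D3_Co than in D1_Co (log2 difference 0.41, SE 0.07, limma adjusted p = 0.00818), and LSS was not called (0.20, SE 0.11, adjusted p = 0.229). MSMO1 rose by 0.48, SC5D by 0.43, SQLE by 0.36, HSD17B7 by 0.36, CYP51A1 by 0.31 and EBP by 0.29, each with a limma adjusted p of 0.0138 or less. NSDHL and DHCR7 were not called, at 0.21 and 0.23.

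All 4 control and transport genes rose between D3_Co and D1_Co, and their order over the days differed. INSIG1 stood at 19.8 and 19.7 FPKM in D1_Co, 31.3 and 32.0 in D2_Co and 36.2 and 34.0 in D3_Co, and STARD4 at 6.91 and 7.89 in D1_Co, 9.91 and 9.08 in D2_Co and 13.4 and 11.6 in D3_Co. SREBF2 stood at 88.2 and 88.8 FPKM in D1_Co, 106 and 119 in D2_Co and 119.7 and 127 in D3_Co. The means of all 3 were in day order. SREBF1 stood at 20.6 and 22.1 FPKM in D1_Co, 32.6 and 31.2 in D2_Co and 26.3 and 25.9 in D3_Co, with the D2_Co libraries above both neighbouring days. The D3_Co against D1_Co differences were 0.80 (SE 0.05, limma adjusted p = 0.000638) for INSIG1, 0.68 (SE 0.10, adjusted p = 0.00408) for STARD4, 0.47 (SE 0.07, adjusted p = 0.00352) for SREBF2 and 0.28 (SE 0.05, adjusted p = 0.0107) for SREBF1.

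Among the fatty acid genes, 5 of 7 rose between D3_Co and D1_Co. FASN stood at 158 and 176 FPKM in D1_Co, 239.6 and 241 in D2_Co and 301 and 278 in D3_Co. ACACA stood at 23.9 and 27.1 FPKM in D1_Co, 32.1 and 35.6 in D2_Co and 40.3 and 38.6 in D3_Co. SCD stood at 355 and 358 FPKM in D1_Co, 490.2 and 484 in D2_Co and 525 and 506 in D3_Co. In each of the 3 genes the libraries of the 3 days did not overlap and followed the order of the days. Their step from D2_Co to D3_Co was not called (limma adjusted p = 0.0631, 0.0931 and 0.237). The means of ELOVL6, FADS1 and FADS2 were not in day order and were higher in D2_Co than in D3_Co. Over all roles, means were in day order in 19 of 29 members, against 25.6% of all genes tested. Between D3_Co and D1_Co, FASN rose by 0.79 (SE 0.08, limma adjusted p = 0.00155), ACACA by 0.61 (SE 0.08, adjusted p = 0.00255) and SCD by 0.53 (SE 0.04, adjusted p = 0.0012) on the log2 scale. ACLY rose by 0.37 and FADS2 by 0.25, while ELOVL6 and FADS1 were not called, at 0.33 and 0.10. The count of 22 lay between 19 and 23 when any 1 library was left out, and 16 of the 22 calls held in all 8 such fits. The calls lost were CYP51A1 and SREBF1 without D1_Co replicate 2 (limma adjusted p 0.0542 to 0.0682), IDI1 and EBP without D1_Co replicate 3 (0.0503 to 0.0505), MVD, CYP51A1 and EBP without D3_Co replicate 1 (0.0536 to 0.0838), and MVD, IDI1 and HSD17B7 without D3_Co replicate 2 (0.0541 to 0.0587). The difference of MVD was 0.27 without D1_Co replicate 2, against 0.41 with all libraries.

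**Figure D2:**
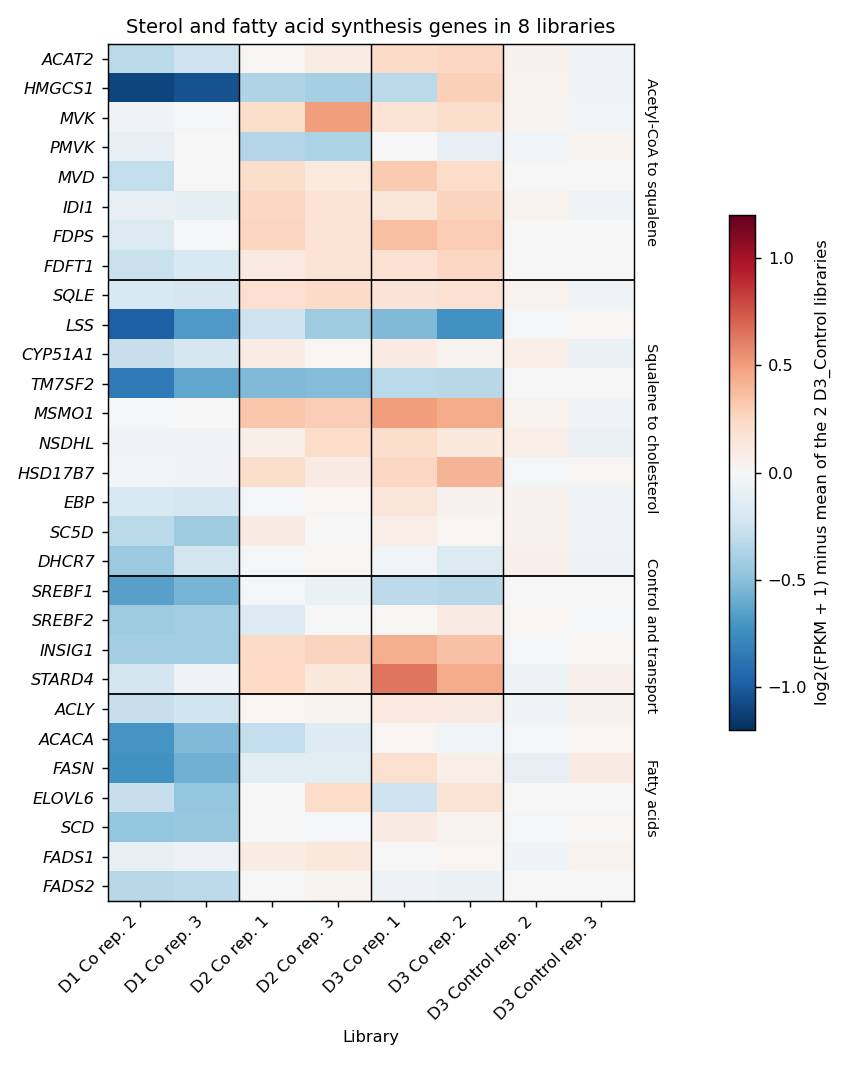
Colour gives log2(FPKM + 1) of each of the 29 members in each of 8 libraries minus the mean of the 2 D3_Control libraries, with genes in rows grouped by role and libraries in columns. The D1_Co columns are blue in most rows, deepest for HMGCS1, LSS and TM7SF2. INSIG1, STARD4 and MSMO1 are red in D3_Co, and LSS and TM7SF2 are blue in all 6 co-culture libraries.

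Between D2_Co and D1_Co, which shares its D1_Co libraries with the comparison above, 17 of 29 members rose and PMVK fell. The members that rose are 58.6% of the list, against 4.23% of all genes tested that rose, and 1 that fell is 3.45%, against 2.87% of all genes. The median was 0.34 over the members and 0.01 over all genes. The largest called rises were those of INSIG1 (log2 difference 0.66, SE 0.05, limma adjusted p = 0.00353), SREBF1 (0.56, SE 0.05, adjusted p = 0.00595), FASN (0.52, SE 0.08, adjusted p = 0.0198), LSS (0.49, SE 0.11, adjusted p = 0.0485) and SCD (0.45, SE 0.04, adjusted p = 0.00619). PMVK, the kinase that makes mevalonate diphosphate, averaged 6.94 ± 0.0958 FPKM in D2_Co and 8.87 ± 0.482 FPKM in D1_Co (SD, n = 2 each), a log2 difference of -0.31 (SE 0.07, limma adjusted p = 0.0459). HMGCS1 was higher by 0.69 but missed the threshold (SE 0.17, limma adjusted p = 0.0536). By role, 4 of 8 early sterol genes, 5 of 10 later ones, 3 of 4 control and transport genes and 5 of 7 fatty acid genes rose. Many of these calls stood near the threshold, and those of SREBF1, INSIG1 and SCD held in all 8 fits without 1 library. 5 members were called without D1_Co replicate 2 (limma adjusted p of the lost calls 0.0563 to 0.16), 4 without D1_Co replicate 3 (0.0502 to 0.163), 4 without D2_Co replicate 1 (0.056 to 0.179) and 3 without D2_Co replicate 3 (0.0641 to 0.166), and 4 to 6 calls were lost without any 1 library of D3_Co or D3_Control (0.0506 to 0.0802).

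Between D3_Co and D2_Co, 2 of 29 members rose and 1 fell, or 6.9% and 3.45% of the list, against 8.7% of all genes tested that rose and 7.22% that fell, so these shares were not above those of all genes. PMVK averaged 8.92 ± 0.536 FPKM in D3_Co and 6.94 ± 0.0958 in D2_Co, STARD4 12.5 ± 1.32 in D3_Co and 9.50 ± 0.589 in D2_Co, and SREBF1 26.1 ± 0.278 in D3_Co and 31.9 ± 1.02 in D2_Co (SD, n = 2 each). PMVK rose by 0.32 (SE 0.07, limma adjusted p = 0.0279) and STARD4 by 0.36 (SE 0.10, adjusted p = 0.0486), and SREBF1 had a log2 difference of -0.28 (SE 0.05, adjusted p = 0.0191). The median was 0.08 over the members and 0.02 over all genes. None of the 3 calls held in all 8 fits without 1 library. PMVK, SREBF1 and STARD4 all lost their calls without D2_Co replicate 1 (limma adjusted p 0.0855 to 0.103), without D2_Co replicate 3 (0.0602 to 0.191), without D3_Co replicate 1 (0.0721 to 0.196) and without D3_Co replicate 2 (0.0564 to 0.0775), and STARD4 also did without any 1 library of D1_Co or D3_Control (0.0543 to 0.0677).

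Against the day 3 control, the earlier co-culture days differ in day as well as in culture, which cannot be told apart, and they share the D3_Control libraries with the day 3 comparison. Between D1_Co and D3_Control, 18 of 29 members fell and none rose. At an unadjusted p under 0.05 by limma, 19 members were lower and 0 higher, against 2569 and 1979 of all 12449 genes. The members that fell are 62.1% of the list, against 12.2% of all genes tested that fell, while 10.5% of all genes rose. The median was -0.26 over the members and -0.03 over all genes. HMGCS1 averaged 49.5 ± 1.45 FPKM in D1_Co and 105 ± 4.35 in D3_Control (SD, n = 2 each), a log2 difference of -1.07 (SE 0.17, limma adjusted p = 0.00465). LSS was next (-0.83, SE 0.11, adjusted p = 0.00281), followed by TM7SF2 (-0.74, SE 0.07, adjusted p = 0.000719), FASN (-0.66, SE 0.08, adjusted p = 0.00177), ACACA (-0.62, SE 0.08, adjusted p = 0.00177) and SREBF1 (-0.60, SE 0.05, adjusted p = 0.00047). SREBF2 and INSIG1 also fell, at -0.42 and -0.41, as did SCD at -0.46, and by role 3 of 8 early sterol genes, 7 of 10 later ones, 3 of 4 control and transport genes and 5 of 7 fatty acid genes fell. 11 of the 18 calls held in all 8 fits without 1 library, and 11 members were called without D1_Co replicate 2, when ACAT2, FDFT1, SQLE, CYP51A1, EBP, DHCR7 and ACLY were lost (limma adjusted p 0.0604 to 0.159). Every other fit without 1 library lost between 2 and 6 of these calls, among SQLE, CYP51A1, EBP, DHCR7, ACAT2, FDFT1 and ACLY (0.0519 to 0.207).

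Between D2_Co and D3_Control, 6 of 29 members rose and 2 fell. They are 20.7% and 6.9% of the list, against 12.4% of all genes tested that rose and 12.6% that fell, and the median was 0.05 over the members and -0.04 over all genes. MVK, IDI1, FDPS, SQLE, MSMO1 and INSIG1 rose, by 0.21 for IDI1 and FDPS up to 0.36 for MVK. MSMO1 averaged 78.3 ± 1.55 FPKM in D2_Co and 62.9 ± 2.50 in D3_Control (SD, n = 2 each), a log2 difference of 0.31 (SE 0.05, limma adjusted p = 0.00489). TM7SF2 and PMVK fell, with log2 differences of -0.52 (SE 0.07, limma adjusted p = 0.003) and -0.37 (SE 0.07, adjusted p = 0.011). SREBF1, which was lower in D3_Co, was not called in D2_Co (-0.05, SE 0.05, adjusted p = 0.569), and the D3_Co against D2_Co test above gives their difference. The calls of TM7SF2 and MSMO1 held in all 8 fits without 1 library. 5 members were called without D2_Co replicate 1 (limma adjusted p of the lost calls 0.0541 to 0.193), 2 without D2_Co replicate 3 (0.0585 to 0.113), 4 without D3_Control replicate 2 (0.0702 to 0.137) and 2 without D3_Control replicate 3 (0.0595 to 0.202), and IDI1 or FDPS was lost without any 1 library of D1_Co or D3_Co (0.0615 to 0.0655). Without D2_Co replicate 3 the difference of MVK was 0.21, against 0.36 with all libraries.

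**Figure D3:**
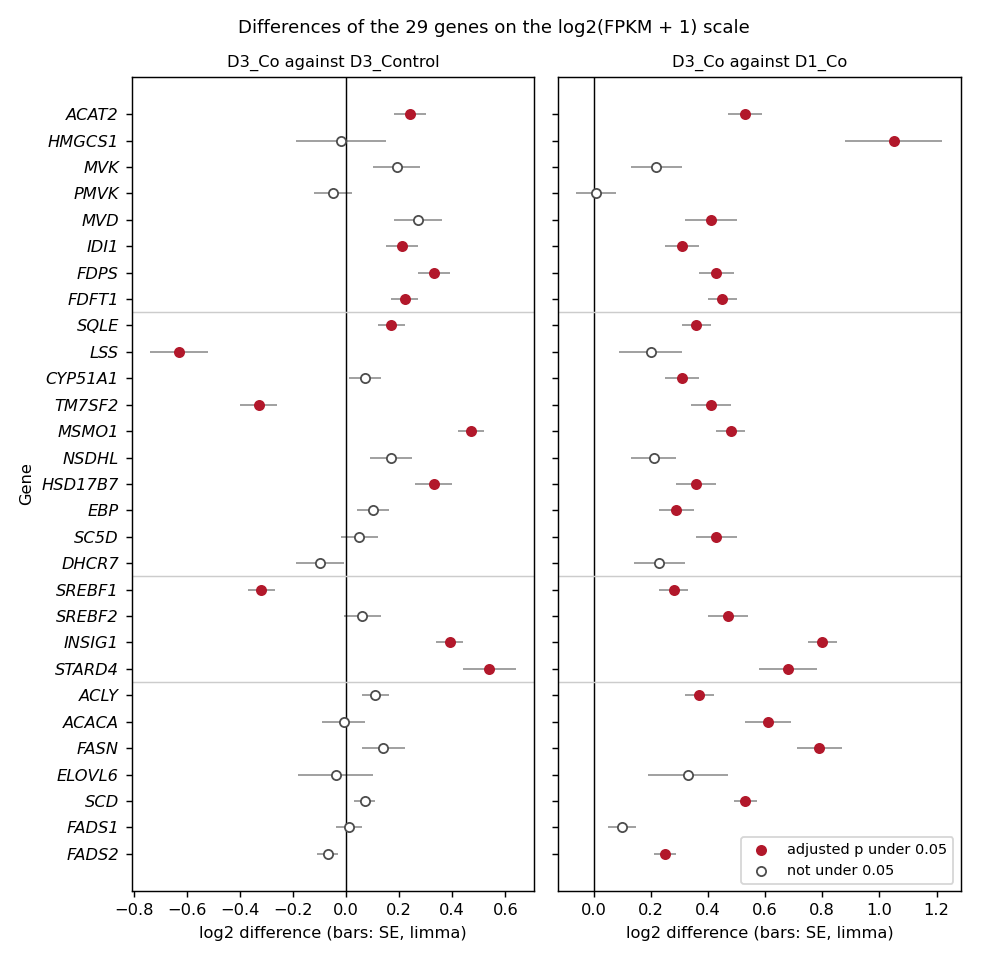
Differences on the log2(FPKM + 1) scale (horizontal axes) of the 29 members (vertical axis, grouped by role), for D3_Co against D3_Control on the left and D3_Co against D1_Co on the right. Points are limma estimates, bars are their SE and filled points have an adjusted p under 0.05. On the left, 9 filled points lie above 0 and 3 below it, and on the right 22 filled points lie above 0.

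The members can be set against all genes by where their differences fall. Between D3_Co and D3_Control, 20 of 29 members had a positive difference, against 6268 of 12449 genes tested. The members spread from LSS at -0.63 to STARD4 at 0.54. Between D3_Co and D1_Co the members ran from PMVK at 0.01 to HMGCS1 at 1.05, with none below 0. Of the 12449 genes tested, 6853 had a positive difference there.

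**Figure D4:**
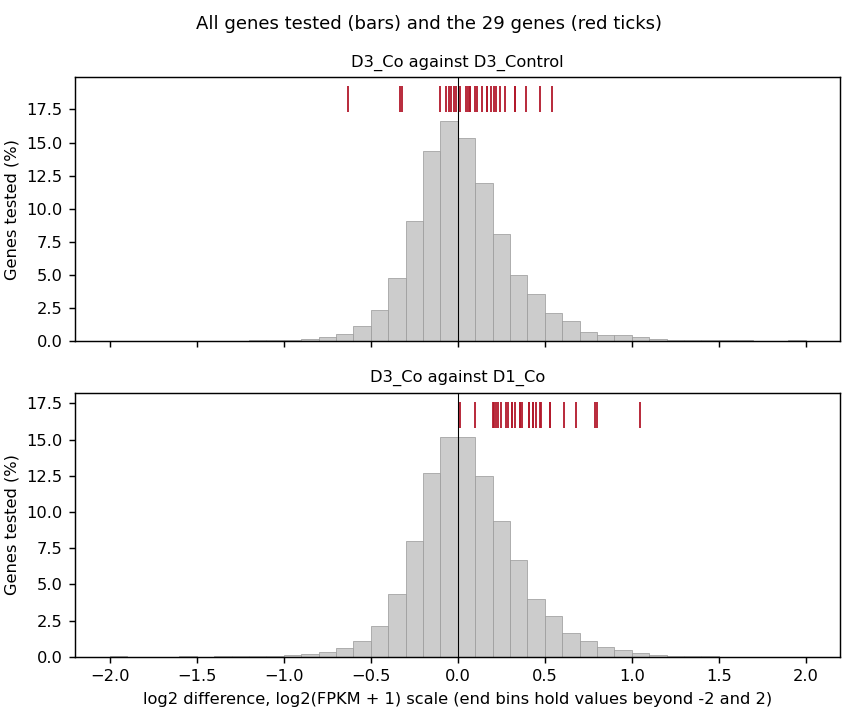
Share of the 12449 genes tested (vertical axes, percent) by their difference on the log2(FPKM + 1) scale (horizontal axis), with the 29 members as red ticks, for D3_Co against D3_Control above and D3_Co against D1_Co below. In the upper panel the ticks lie on both sides of 0, from -0.63 to 0.54, and in the lower panel they all lie above 0.

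Other genes of the same pathways were taken from 4 lists of further enzymes and regulators. Their counts in D3_Co against D3_Control stand beside 13.5% of all genes tested that rose and 10.8% that fell. Of 10 genes that process or control SREBP, 2 rose and 2 fell between D3_Co and D3_Control (median -0.04). LPIN1, a phosphatidate phosphatase that also restrains SREBP in the nucleus, stood at 7.15 and 7.76 FPKM in D3_Co, against 3.34 and 3.63 FPKM in D3_Control, and it was higher without overlap (log2 difference 0.91, SE 0.12, limma adjusted p = 0.00283). INSIG2, the paralogue of INSIG1, rose by 0.38 at a low level of 2.09 and 1.91 FPKM in D3_Co, against 1.27 and 1.32 FPKM in D3_Control. SCAP, the escort that carries SREBP out of the endoplasmic reticulum, fell with a difference of -0.25, as did ERLIN1 at -0.30, which is linked to sterol-dependent protein turnover. Of 13 isoprenoid and further sterol enzymes tested (14 listed), 1 rose and 2 fell (median -0.06), and LBR, a sterol reductase of the nuclear envelope that shares the reaction of TM7SF2, stood at 38.3 and 36.5 FPKM in D3_Co, against 28.1 and 27.0 FPKM in D3_Control. LBR was higher in D3_Co without overlap (0.43, SE 0.06, limma adjusted p = 0.00447), while TM7SF2 was lower there.

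Of 19 further fatty acid enzymes tested (22 listed), 5 rose and 2 fell between D3_Co and D3_Control (median 0.10). ACSS2, which makes acetyl-CoA from acetate, stood at 8.07 and 8.57 FPKM in D1_Co, 13.5 and 14.5 in D2_Co, 19.6 and 20.4 in D3_Co and 11.2 and 11.4 in D3_Control. Its libraries followed the order of the days and ended above D3_Control (log2 difference of D3_Co against D3_Control 0.78, SE 0.06, limma adjusted p = 0.000486). FADS3, a relative of FADS1 and FADS2, rose by 0.67, ACSL1 by 0.43, ME1, which supplies NADPH, by 0.26 and HACD1 by 0.44, and MCAT of mitochondrial fatty acid synthesis and HACD3 fell, at -0.52 and -0.19. Of 10 genes of sterol uptake, storage and transport tested (11 listed), 2 rose and 1 fell (median 0.05). NPC1, which exports cholesterol from lysosomes, stood at 24.5 and 24.1 FPKM in D3_Co, against 16.7 and 16.9 FPKM in D3_Control, and the lipoprotein receptor VLDLR at 13.8 and 12.5 FPKM in D3_Co, against 10.3 and 10.1 FPKM in D3_Control. Both were higher without overlap (0.51 and 0.34), and TMEM97, a sterol-responsive membrane protein, was lower (-0.33). Between D3_Co and D1_Co, 2 of 10, 3 of 13, 8 of 19 and 3 of 10 genes of these 4 lists rose, in the order given here, against 16.1% of all genes tested. Over the same comparison 2 of 13 isoprenoid and further sterol enzymes and 3 of 19 further fatty acid enzymes fell, against 10.5% of all genes tested, so both lists held genes of either direction. In D3_Co against D3_Control, the isoprenoid enzymes that fell were PDSS1 and FNTB, at log2 differences of -0.27 and -0.47. The rows of FNTB and HACD1 were unsettled in 2 libraries each.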

How the data were processed

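PolyA RNA of 8 H9 libraries was analysed from 1 table of gene-level FPKM that the authors deposited, with 45961 gene numbers and 8 value columns. HISAT2 2.1.0, StringTie 1.3.3b and the build GRCh38.p12 stand in the submitters' processing notes, and their settings are not given in the sources used here. Groups and days were taken from the library titles. The values are not counts, so no count test was run, and FPKM keeps no depth, so no counting interval is given.

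In the deposited table, the lines of every library, a gene number and a value each, had been sorted as text with the separator and the decimal point ignored, and set beside the gene numbers of D1_Co replicate 2. This history was inferred from the row order, and 7 of 7 libraries allowed it, against 0 of 7 when the point was kept. The 3394 gene numbers with which a longer number begins could trade places. An exact search took the allowed order closest to D1_Co replicate 2 (absolute log2 difference per row capped at 4, pseudocount 0.1). It was repeated under 10 random changes of that library (SD 0.5), and rows that moved by over 0.25 on the log2 scale were called unsettled, which 431 of 12449 tested rows and 0 of 29 members were.

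Tested rows had a name that fitted their gene number in RefSeq and averaged 1 FPKM or more (36028 of 45961 rows fitted). The fits used limma 3.58.1 (R 4.3.3) on log2(FPKM + 1), a scale that understates changes of low genes, with all 8 libraries in 1 model of 4 groups (eBayes with an intensity trend, 4 residual and 3.19 prior degrees of freedom). P-values were adjusted by Benjamini-Hochberg over 12449 genes in each of 6 comparisons and called under 0.05. 20 other settings were tried, including no filter on low values, other scalings, the values as deposited and each library left out. The 29 members, the 4 further pathway lists and the marker lists were chosen with earlier results of these data known, so no list was tested. 1 gene of the further lists is not reported here. Library values are given for members called on day 3, for those called elsewhere with an absolute log2 difference of at least 0.5, and for SREBF1, SREBF2 and INSIG1. Figures were drawn with matplotlib 3.10.9.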

Additional observations from a re-analysis of the deposited data

How the results depend on the processing

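The count of 22 members called in D3_Co against D1_Co stayed within 1.5 times under every alternative run, with 19 to 23 when 1 library was left out. Without 1 library the count lay between 4 and 11 in D3_Co against D3_Control (12 with all), 2 and 8 in D2_Co against D3_Control (8), 11 and 17 in D1_Co against D3_Control (18), 3 and 16 in D2_Co against D1_Co (18), and 0 and 3 in D3_Co against D2_Co (3). A lone library left in a group was assumed to vary like the other groups. No call turned its sign in these fits. Where the libraries of 2 groups do not overlap, leaving 1 out cannot turn the sign, so this adds no evidence. With no filter on low values, 5 members were called in D2_Co against D3_Control and 10 in D2_Co against D1_Co. With the replicate block, 7 were called in D3_Co against D3_Control and 6 in D2_Co against D1_Co. Deviations from the group means correlated at -0.031 to 0.044 between libraries that share a replicate number. With 2 libraries a group, the deviation of 1 mirrors that of the other. Whether libraries of the same number share a culture or batch cannot be told from these values. With only rows that had stayed in place, which leaves 20 members, 7 were called in D3_Co against D3_Control and 11 in D2_Co against D1_Co. In D2_Co against D1_Co, 11 were called without the intensity trend and 6 with only the 2 groups compared, and in D3_Co against D2_Co 1 was with only the 2 groups compared. Over all called members and alternatives, 1272 of 1594 results kept their direction and their side of the threshold, 301 kept their direction and missed it, and 21 turned their sign. For the fits other than those with fewer members or libraries the cause was not tested.

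With the values as deposited, which stand on wrong rows and so mix values of different genes, 5, 5, 11 and 9 members were called in D3_Co, D2_Co and D1_Co against D3_Control and in D2_Co against D1_Co. Some genes with moved values turned their sign. On the log2 scale these were ACAT2 at -0.28 and FDFT1 at -0.02 in D3_Co against D3_Control. In D1_Co against D3_Control they were ACAT2 at 1.38, FDFT1 at 4.05, LSS at 2.74, ACLY at 0.42, ACACA at 3.90 and FASN at 3.66. In D2_Co against D1_Co they were ACAT2 at -1.47, IDI1 at -2.34, FDFT1 at -3.84, LSS at -2.74, ACLY at -0.53, ACACA at -3.61 and FASN at -3.66. In D3_Co against D1_Co they were ACAT2 at -1.65, IDI1 at -0.26, FDFT1 at -4.07, ACLY at -0.40, ACACA at -3.58 and FASN at -3.66. With 2 libraries a group and an unknown number of reads, differences smaller than those called could not be told from the spread.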
